A study of Mus musculus with 6 samples.

Results

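The 9 genes described here encode subunits of the NADPH oxidases, enzymes whose product is a reactive oxygen species and which host cells of a tumor can carry. They were found as the rows of the deposited table whose gene name is Cybb, Cyba, Ncf1, Ncf4, Rac2, Nox4, Nox1, Duox1 or Duox2, 9 of 21958 genes. RNA was sequenced from bulk tissue of MC38 tumors. MC38 is a mouse colon carcinoma line, here grown under the skin of the right flank of wild-type male C57BL/6J mice (6 to 8 weeks old, per the study's methods for all its mice). The Mn-N/C tumors were injected with 50 µL of Mn-N/C, a nanozyme with single manganese atoms on a nitrogen-carbon support, at 70 mg/kg every 3 days, and the vehicle tumors were injected with 50 µL of saline on the same schedule. The methods for the tumor models set 800 to 1000 mm³ as the tumor volume up to which tissue was collected. They give no volume or day for the sequenced tumors, so the groups may differ in tumor size. Each group gave 3 libraries. The libraries held 14988588 to 18961134 counts. Neither the labels nor the methods tie a library to a single animal, and the p-values therefore reflect only how far these libraries differ, which may be technical. Mn-N/C is a catalyst that makes hydroxyl radicals from hydrogen peroxide. The comparison here asks whether the RNA of oxidase genes in bulk tumor tissue, from tumor and host cells together, differed with Mn-N/C.

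An NADPH oxidase passes electrons from NADPH across a membrane to oxygen. In the phagocyte enzyme, Cybb (gp91phox, the catalytic chain) and Cyba (p22phox, its stabilizing partner) form the membrane cytochrome, and Ncf1 (p47phox, the organizer) and Ncf4 (p40phox) join it from the cytosol on activation together with a Rac GTPase, which is Rac2 in blood-derived cells. Nox1 is the colon epithelial relative of Cybb, Nox4 is a constitutively active relative found in kidney, fibroblasts and vessel walls, and Duox1 and Duox2 are the calcium-regulated oxidases of thyroid and mucosal surfaces, which release hydrogen peroxide.

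The sequences before the start sites of Cybb, Cyba and Nox4 are shown because the membrane chains of the phagocyte enzyme leaned in opposite directions and differ in base composition, and Nox4 leaned with Cybb. Each is the 250 bases before the start site, 5′ to 3′ on the gene's strand, from RefSeq on GRCm38.p6, at chrX:9469325-9469574 (minus strand) for Cybb, chr8:122432941-122433190 (minus strand) for Cyba and chr7:87246399-87246648 (plus strand) for Nox4, and capitals mark CCAAT on either strand (CCAAT or ATTGG).
Cybb: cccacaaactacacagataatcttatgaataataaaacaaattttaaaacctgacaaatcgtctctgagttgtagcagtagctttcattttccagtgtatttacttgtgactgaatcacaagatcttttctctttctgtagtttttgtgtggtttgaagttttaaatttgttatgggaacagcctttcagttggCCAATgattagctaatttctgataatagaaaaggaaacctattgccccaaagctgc
Cyba: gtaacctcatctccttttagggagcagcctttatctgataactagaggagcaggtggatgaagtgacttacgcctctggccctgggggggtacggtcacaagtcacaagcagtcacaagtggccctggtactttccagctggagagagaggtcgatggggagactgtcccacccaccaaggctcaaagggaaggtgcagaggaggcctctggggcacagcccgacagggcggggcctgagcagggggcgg
Nox4: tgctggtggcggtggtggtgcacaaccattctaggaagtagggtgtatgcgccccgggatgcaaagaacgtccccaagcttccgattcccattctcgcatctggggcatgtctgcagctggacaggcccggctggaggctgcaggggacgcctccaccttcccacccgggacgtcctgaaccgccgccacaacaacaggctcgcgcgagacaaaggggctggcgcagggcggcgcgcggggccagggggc
Of these bases 34.0% were G or C for Cybb, 60.0% for Cyba and 67.2% for Nox4, against a median of 52.4% over 32851 promoters of the same length. Cybb and Nox4, which leaned the same way, were thus the lowest and the highest of the 3. No link of promoter sequence with the fold changes was tested. Cybb held 1 CCAAT, which began 56 bases before the start site, and Cyba and Nox4 held none, while 33.8% of all these promoters held it. The letters GAGGAA or their reverse TTCCTC are a form of the site that the myeloid factor PU.1 can bind. They were absent from all 3 of these windows and present in 23.3% of all promoters. Other and shorter forms of that site were not searched for. RefSeq promoters were matched for 7 of the 9 genes. In the other 4 matched promoters, GAGGAA was found once, 23 bases before the start site of Nox1, and CCAAT once, 183 bases before that of Duox2.

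Per length, Cyba was by far the most abundant member. Its level averaged 80.6 ± 3.76 FPKM in Mn-N/C tumors and 68.6 ± 11.9 FPKM in vehicle tumors (SD, n = 3 each), where FPKM is the authors' count scaled for gene length and library total. The other 4 phagocyte genes lay close together, with overlapping spreads between neighbours. Over all 6 libraries they averaged 7.77 FPKM for Ncf1, 6.75 FPKM for Rac2, 4.86 FPKM for Cybb and 4.6 FPKM for Ncf4. Duox1, Duox2 and Nox4 followed at 0.688, 0.261 and 0.155 FPKM, of which the spreads of Duox2 and Nox4 overlapped, and Nox1 was at the limit of detection. A macrophage and monocyte list of 13 markers was detected in full, with Lyz2 highest at 487 FPKM. Of 12 neutrophil markers, the matrix metalloproteinase gene Mmp9, which other cells also make, supplied most of the sum, while 3 of the 12 (Ly6g, Elane and Camp) stayed under 1 CPM in every library and Csf3r was at 1.66 to 5.2 CPM (counts scaled to a common library size by TMM). In bulk tissue, fewer cells of a type and less RNA per cell cannot be told apart. Nor can the RNA of tumor cells, for Cyba or any other member, be told apart from that of host cells.

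The labelled cell type is colon cancer, yet 8 of 11 epithelial and colon markers, among them Epcam, Krt8, Krt18 and Cdx2, were under 1 CPM in all 6 libraries. Cdh1 supplied most of that list's sum, which was 35.0 to 43.8 CPM in Mn-N/C tumors and 25.6 to 39.5 CPM in vehicle tumors. Mn-N/C replicate 2 stood apart by collagen and skeletal muscle RNA. Its fibroblast list, led by Col1a1, summed to 8646 CPM against 3662 and 3868 CPM in the other Mn-N/C libraries and 3967 to 6319 CPM in vehicle tumors. Its skeletal muscle list, led by Acta1, summed to 695 CPM against 31.5 CPM or less in the other Mn-N/C libraries and 15.8 to 219 CPM in vehicle tumors. Col1a1, Col1a2 and Col3a1 supplied most of the fibroblast sum of this library, at 2818, 2127 and 2806 CPM. Of the 11 fibroblast genes 5 were highest in it, while Dcn was lowest there at 243 CPM. Member fold changes that this library moved by more than 1.5 times are also given without it.

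No oxidase gene passed the test between the groups. All but Nox1 of the 9 members had enough counts to be tested, that is 8, and in edgeR's quasi-likelihood test 0 of these 8 had a Benjamini-Hochberg adjusted p under 0.05 over the 12800 genes tested, where 0 of all 12800 genes (0.0%) passed. At an unadjusted p under 0.05 there were also 0 of 8, against 21.0% of all genes, and DESeq2 called 0 of the 5 members it gave an adjusted p (not Nox4, Duox1 and Duox2), against 6.83% of 10048 genes. In 0 of the 8 did the groups fail to overlap, against 26.4% of all genes. The mean was higher in Mn-N/C tumors for 5 of the 8 and lower for 3. Their median log2 fold change was 0.17, where 50.2% of all genes were above 0 and their median was 8.3e-04. Without Mn-N/C replicate 2 the split was still 5 higher and 3 lower, with a median of 0.05, but Cybb and Nox4 had an unadjusted p under 0.05 in edgeR, which is 2 of 8 against 15.3% of all genes, and their groups did not overlap, against 37.3% of all genes. Without vehicle replicate 2 the same held for Cyba, 1 of 8 at an unadjusted p under 0.05 against 29.1% of all genes and 1 without overlap against 47.7%. Leaving out 1 of the other libraries gave 0 of 8 at an unadjusted p under 0.05, against 10.8% of all genes without Mn-N/C replicate 1, 17.3% without Mn-N/C replicate 3, 14.1% without vehicle replicate 1 and 11.8% without vehicle replicate 3. The groups then did not overlap for Duox2 without Mn-N/C replicate 1 (32.5% of all genes), for Cyba and Ncf4 without Mn-N/C replicate 3 (39.7%), for Ncf4 without vehicle replicate 1 (33.3%) and for 0 members without vehicle replicate 3 (30.7%).

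**Figure D1:**
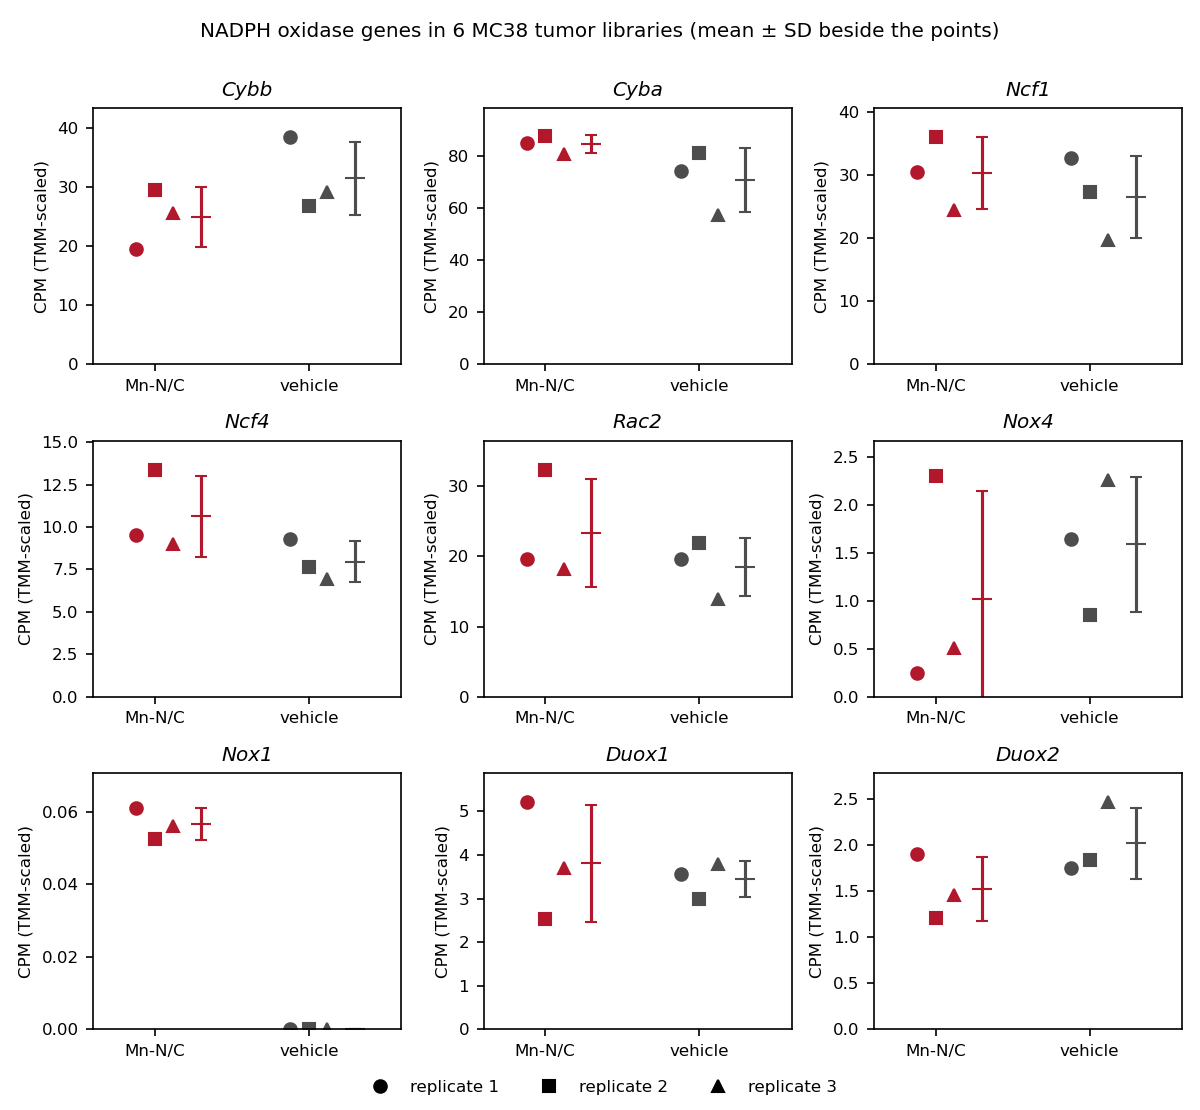
Level of each of the 9 oxidase genes in CPM, scaled by TMM, with Mn-N/C tumors left (red) and vehicle tumors right (grey), 1 symbol per replicate and the mean ± SD (n = 3) beside them. The groups overlap in all 8 tested genes, Mn-N/C replicate 2 is the highest library for 5 of them, and each of the Nox1 points of Mn-N/C stands for 1 read (the lower SD bar of Nox4 in Mn-N/C runs below 0 and is cut off).

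Of the membrane cytochrome, the catalytic chain Cybb (ENSMUSG00000015340, chromosome X from 9301491 to 9354010 as the file gives it, build not named there) was at 19.5, 29.5 and 25.6 CPM in Mn-N/C replicates 1 to 3, against 38.4, 26.8 and 29.2 CPM in vehicle replicates 1 to 3. The groups overlapped, with Mn-N/C replicate 1 lowest and vehicle replicate 1 highest of all 6. The log2 fold change was -0.34 (standard error 0.185, 95% interval -0.76 to 0.09, adjusted p = 0.325 from edgeR). Without Mn-N/C replicate 2 it was -0.47, with an unadjusted p of 0.0356 and an adjusted p of 0.323 from edgeR, and without vehicle replicate 1 it was -0.16.
Its partner Cyba (ENSMUSG00000006519, chromosome 8 from 123151515 to 123159669) leaned the other way, at 84.8, 87.4 and 80.6 CPM in Mn-N/C replicates 1 to 3 and 74.1, 81.0 and 57.1 CPM in vehicle replicates 1 to 3. Only vehicle replicate 2 reached into the Mn-N/C range, and vehicle replicate 3 was far lower than the rest. The log2 fold change of Cyba was 0.25 (standard error 0.124, 95% interval -0.03 to 0.54, adjusted p = 0.281 from edgeR). It was 0.12 without vehicle replicate 3 and 0.37 without vehicle replicate 2, where its adjusted p of 0.0929 from edgeR was the lowest of any member under any choice and 4.46% of all genes were called.
Expressed as FPKM of Cyba per FPKM of Cybb, the chains stood at 24.25, 16.6 and 17.6 in Mn-N/C replicates 1 to 3 and at 10.8, 16.9 and 10.95 in vehicle replicates 1 to 3, so vehicle replicate 2 lay within the Mn-N/C range.

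The cytosolic subunits averaged higher after Mn-N/C, and none was called. Ncf1 (ENSMUSG00000015950, chromosome 5 from 134248907 to 134258479), the organizer subunit, was at 30.6, 36.0 and 24.5 CPM in Mn-N/C replicates 1 to 3 and 32.65, 27.3 and 19.6 CPM in vehicle replicates 1 to 3. Its groups overlapped over most of their range, and the log2 fold change was 0.19 (standard error 0.203, adjusted p = 0.623 from edgeR), with 0.05 without Mn-N/C replicate 2 and 0.02 without vehicle replicate 3. In the file, Ncf1 shares 4303 bases with Gtf2ird2 on the opposite strand, and as the counting is not stated to use strand, reads of the overlap cannot be assigned to one of them.
Ncf4 (ENSMUSG00000071715, chromosome 15 from 78129001 to 78146780), which binds phosphoinositide on the phagosome, was at 9.5, 13.4 and 8.99 CPM in Mn-N/C replicates 1 to 3 against 9.29, 7.65 and 6.92 CPM in vehicle replicates 1 to 3. Vehicle replicate 1 alone reached above the lowest Mn-N/C library. The log2 fold change of Ncf4 was 0.42 (standard error 0.206, 95% interval -0.06 to 0.89, adjusted p = 0.284 from edgeR) and 0.22 without Mn-N/C replicate 2.

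Rac2 (ENSMUSG00000033220, chromosome 15 from 78443367 to 78456983), the GTPase of the phagocyte complex that lymphocytes also express, was at 19.7, 32.3 and 18.3 CPM in Mn-N/C replicates 1 to 3 and 19.6, 21.9 and 13.9 CPM in vehicle replicates 1 to 3. Mn-N/C replicate 2 stood alone above every vehicle library and the other Mn-N/C libraries lay inside the vehicle range. Its log2 fold change was 0.34 (SE 0.247, adjusted p = 0.456 from edgeR), and 0.04 without Mn-N/C replicate 2. Rac1, the ubiquitous form, exceeded it per length by 16.2, 9.105 and 16.1 times in Mn-N/C replicates 1 to 3 and by 14.4, 13.5 and 19.95 times in vehicle replicates 1 to 3.

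Cyba, Ncf1, Ncf4 and Rac2 had their highest level in the same library, Mn-N/C replicate 2, and their lowest in the same library, vehicle replicate 3. The summed level of 7 leukocyte markers had the same extremes, with 194, 288 and 205 CPM in Mn-N/C replicates 1 to 3 and 248, 208 and 166 CPM in vehicle replicates 1 to 3. Of its genes 4 of 7 (Coro1a, Laptm5, Cd52 and Ikzf1) had both extremes there, while Ptprc, the CD45 gene, was highest in vehicle replicate 1 and lowest in Mn-N/C replicate 1, as Cybb was. The macrophage list summed to 1164, 1427 and 1408 CPM in Mn-N/C replicates 1 to 3 and 1340, 1244 and 1039 CPM in vehicle replicates 1 to 3, and T and NK cell markers, led by Lck, to 9.83 to 20.3 CPM and 6.46 to 20.1 CPM. The neutrophil list summed to 164 to 243 CPM in Mn-N/C tumors and 175 to 222 CPM in vehicle tumors, and the B cell list, led by Jchain, to 1.41 to 18.5 CPM and 2.75 to 16.35 CPM. Endothelial markers, led by Cdh5, summed to 110.5 to 194 CPM in Mn-N/C tumors and 121 to 181 CPM in vehicle tumors, keratinocyte markers, led by Krt14, to 189 to 207 CPM and 138 to 199 CPM, and adipocyte markers, led by Fabp4, to 16.6 to 23.5 CPM and 17.6 to 46.5 CPM. Krt14 supplied most of the keratinocyte sum, and 4 of the 6 keratinocyte markers were under 1 CPM in all 6 libraries. So were 5 of the 6 B cell markers, all but Jchain. The part of the listed cell types in the oxidase values was not tested.
Cybb did not share these extremes. Per 1000 CPM of macrophage markers, Cybb was at 16.8, 20.7 and 18.2 CPM in Mn-N/C replicates 1 to 3 and 28.7, 21.5 and 28.1 CPM in vehicle replicates 1 to 3, so every Mn-N/C value lay below every vehicle value, as for 12.6% of all tested genes scaled in this way. The other 4 phagocyte genes overlapped on that scale. Per FPKM of Cybb, Ncf4 was at 1.4, 1.305 and 1.01 in Mn-N/C replicates 1 to 3 and at 0.695, 0.822 and 0.683 in vehicle replicates 1 to 3, with every Mn-N/C value above every vehicle value, as for 14.4% of all other tested genes set against Cybb. Ncf1 per Cybb, at 1.52 to 2.48 in Mn-N/C tumors and 1.07 to 1.62 in vehicle tumors, overlapped, and so did Rac2 per Cybb, at 1.33 to 2.05 in Mn-N/C tumors and 0.893 to 1.53 in vehicle tumors. These ratios were chosen after the values were seen and were not tested.
The genes whose log2 CPM profile over the 6 libraries came closest to that of Cybb, by root mean square distance after centring, were Trp53i11 at 0.0588, Havcr2 (the TIM-3 receptor of T and myeloid cells) at 0.0746, Zfp36 (tristetraprolin, which promotes decay of cytokine mRNAs) at 0.0813 and the kinase gene Hipk2 at 0.0966, where the median over 12175 genes was 0.343.

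**Figure D2:**
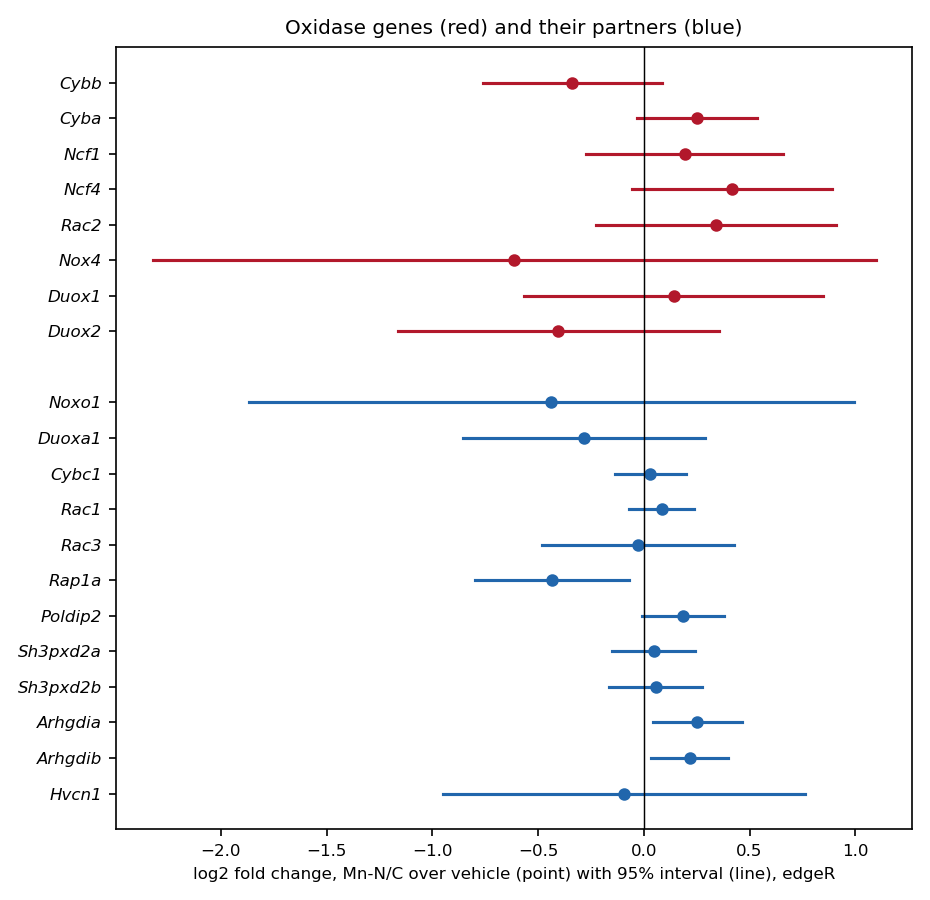
Log2 fold change of Mn-N/C over vehicle (points) with its 95% interval from edgeR (lines) for the 8 tested oxidase genes (red) and 12 tested partners (blue). All 8 red intervals cross 0, from the narrow one of Cyba (-0.03 to 0.54) to the wide one of Nox4 (-2.32 to 1.10).

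Nox4 (ENSMUSG00000030562, chromosome 7 from 86895304 to 87047918) was low and the most uneven member. It had 4, 44 and 9 reads in Mn-N/C replicates 1 to 3 and 31, 14 and 34 reads in vehicle replicates 1 to 3, which is 0.245, 2.31 and 0.506 CPM against 1.65, 0.857 and 2.26 CPM. A pair of Mn-N/C libraries were the lowest of the 6 and the remaining one the highest. The log2 fold change was -0.61 (standard error 0.745, 95% interval -2.32 to 1.10, adjusted p = 0.674 from edgeR). Without Mn-N/C replicate 2 it was -2.04, with an unadjusted p of 0.00931 and an adjusted p of 0.323 from edgeR, and without Mn-N/C replicate 1 it was -0.17. By the same distance measure the genes closest to Nox4 were Lum at 0.23, Lama2 at 0.279, Mark1 at 0.337 and Tmem252 at 0.353, against a median of 1.04. Lum, which encodes the collagen-binding proteoglycan lumican and is one of the fibroblast markers, was at 4.6, 19.9 and 5.17 CPM in Mn-N/C replicates 1 to 3 and 15.8, 8.69 and 19.5 CPM in vehicle replicates 1 to 3. Lama2 encodes a laminin chain of basement membranes.

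Nox1 (ENSMUSG00000031257, chromosome X from 132987170 to 133122705) had 1 read in each Mn-N/C library and 0 in each vehicle library. All 6 values are at or under the 3 counts that a count of 0 allows, which is 0.157 to 0.2 CPM per library as counting error only, so no fold is given. In the file Nox1 also overlaps Cstf2, Xkrx and Arl13a, which makes single reads hard to assign. Of its colon partners, Noxa1, its activator, was also too low to test, with 0.06 CPM or less in Mn-N/C tumors and 0.37 CPM or less in vehicle tumors, and Noxo1, its organizer, was tested and averaged 0.834 ± 0.564 CPM in Mn-N/C tumors and 1.14 ± 0.588 CPM in vehicle tumors (SD, n = 3 each). Nox3, the inner ear oxidase, had no read in any library.

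Both dual oxidases were detected at low level. Duox1 (ENSMUSG00000033268, chromosome 2 from 122146153 to 122178453) was at 5.21, 2.52 and 3.71 CPM in Mn-N/C replicates 1 to 3 and 3.56, 3.0 and 3.8 CPM in vehicle replicates 1 to 3, with the Mn-N/C libraries both highest and lowest. Its log2 fold change, at 0.14 (SE 0.308, adjusted p = 0.83 from edgeR), turned to -0.15 without Mn-N/C replicate 1 and was 0.37 without Mn-N/C replicate 2. Duox2 (ENSMUSG00000068452, chromosome 2 from 122109728 to 122128930) was at 1.9, 1.21 and 1.46 CPM in Mn-N/C replicates 1 to 3 and 1.75, 1.84 and 2.46 CPM in vehicle replicates 1 to 3. Mn-N/C replicate 1 lay inside the vehicle range and the others below it. The log2 fold change of Duox2 was -0.40 (standard error 0.331, adjusted p = 0.512 from edgeR), and -0.26 without Mn-N/C replicate 2. Of the maturation factors that carry these enzymes to the cell surface, Duoxa1 averaged 3.08 ± 0.258 CPM in Mn-N/C tumors and 3.75 ± 0.684 CPM in vehicle tumors (SD, n = 3 each), and Duoxa2, the partner of Duox2, stayed at or under 0.2 CPM.

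Around the members, 15 genes were listed as assembly partners, relatives and maturation factors, and 12 of them could be tested (not Nox3, Noxa1 and Duoxa2). The mean was higher in Mn-N/C tumors for 7 of these and lower for 5 (median log2 fold change 0.04), where 50.2% of all genes were higher, and 0 passed the adjusted threshold in edgeR or DESeq2. Leaving out 1 library gave 5 to 8 higher of 12, with 5 without Mn-N/C replicate 1 and 6 without vehicle replicate 3. With no library left out, the groups did not overlap for 2 higher partners, against 14.2% of all genes, and 1 lower, against 12.1%. At an unadjusted p under 0.05, 2 were higher, where 9.82% of all genes were, and 1 was lower, where 11.1% of all genes were. The higher ones were Arhgdia and Arhgdib, inhibitors that hold Rac proteins in the cytosol. Arhgdia, also the most abundant partner at 328 FPKM, averaged 807 ± 45.2 CPM in Mn-N/C tumors and 677 ± 71.4 CPM in vehicle tumors (SD, n = 3 each), a log2 fold change of 0.25 (adjusted p = 0.197 from edgeR). Arhgdib, the leukocyte form, averaged 84.1 ± 5.87 CPM in Mn-N/C tumors and 72.4 ± 2.67 CPM in vehicle tumors (adjusted p = 0.2 from edgeR). The lower one was Rap1a, a small GTPase that copurifies with the cytochrome, at 88.6 ± 2.04 CPM in Mn-N/C tumors and 120 ± 30.2 CPM in vehicle tumors (log2 fold change -0.43, adjusted p = 0.199 from edgeR, and a log2 fold change of -0.22 without vehicle replicate 3). Cybc1, the chaperone that the Cybb and Cyba proteins need to be stable, averaged 48.1 ± 0.324 CPM in Mn-N/C tumors and 47.1 ± 1.88 CPM in vehicle tumors.

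All 23 listed receptors and signalling genes that lead to assembly of the phagocyte enzyme were tested. In Mn-N/C tumors 17 of them averaged higher and 6 lower (median log2 fold change 0.16), where 50.2% of all genes averaged higher. Mn-N/C replicate 2 was the highest library for 16 of the 23 and vehicle replicate 3 the lowest for 16. Without Mn-N/C replicate 2, 12 were higher and 11 lower (median 0.06), and without vehicle replicate 3, 14 were higher and 9 lower (median 0.06). In edgeR 0 passed the adjusted threshold, and at an unadjusted p under 0.05 1 was higher, against 9.82% of all genes, and 1 lower, against 11.1%. The groups did not overlap for 2 higher genes, Syk among them, against 14.2% of all genes, and 1 lower, against 12.1%. Tlr4, the endotoxin receptor, averaged 20.1 ± 2.54 CPM in Mn-N/C tumors and 29.9 ± 6.42 CPM in vehicle tumors (SD, n = 3 each), with every Mn-N/C library below every vehicle library, as for 12.1% of all genes. Its log2 fold change was -0.57 (adjusted p = 0.182 from edgeR and 0.0408 from DESeq2, which called 6.83% of its genes), and -0.38 without vehicle replicate 3. Syk, the kinase below Fc receptors and integrins, averaged 83.5 ± 0.611 CPM in Mn-N/C tumors and 72.7 ± 3.82 CPM in vehicle tumors, a log2 fold change of 0.20 (adjusted p = 0.197 from edgeR). Itgb2, the CD18 chain of phagocyte integrins, had a log2 fold change of 0.36 (adjusted p = 0.294 from edgeR), which was 0.17 without vehicle replicate 3, and Pak2, the most abundant gene of the list at 34.1 FPKM, one of -0.03.

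Of 19 listed enzymes that make reactive oxygen or nitrogen species by other routes, 15 were tested. In Mn-N/C tumors 8 of them averaged higher and 7 lower (median log2 fold change 0.09), where 50.2% of all genes averaged higher. Without Mn-N/C replicate 2, 5 were higher and 10 lower (median -0.18), and without vehicle replicate 2, 7 were higher and 8 lower (median -0.13). In edgeR 0 passed the adjusted threshold, and at an unadjusted p under 0.05 1 was higher, against 9.82% of all genes, and 3 lower, against 11.1%. The groups did not overlap for 1 higher gene, against 14.2% of all genes, and 3 lower, against 12.1%. Xdh, xanthine dehydrogenase, which makes superoxide and peroxide in its oxidase form, was at 62.1, 63.1 and 71.1 CPM in Mn-N/C replicates 1 to 3 and 85.3, 81.9 and 89.5 CPM in vehicle replicates 1 to 3. Every Mn-N/C library lay below every vehicle library, as for 12.1% of all genes, and the log2 fold change of Xdh was -0.39 (standard error 0.0825, adjusted p = 0.182 from edgeR and 0.0151 from DESeq2, which called 6.83% of its genes). The log2 fold change was 0.33 for Loxl2, a collagen crosslinking amine oxidase (adjusted p = 0.198 from edgeR, and a log2 fold change of 0.22 without Mn-N/C replicate 2), and -0.63 for the aldehyde oxidase gene Aox1 (adjusted p = 0.238 from edgeR, and a log2 fold change of -0.26 without vehicle replicate 3). Ero1a, the disulfide-forming oxidase of the endoplasmic reticulum and the most abundant of the list at 34.1 FPKM, averaged 148.5 ± 57.4 CPM in Mn-N/C tumors and 212 ± 35.4 CPM in vehicle tumors, a log2 fold change of -0.52, which was -0.23 without Mn-N/C replicate 2. The peroxidase genes Mpo, Epx and Lpo and the nitric oxide synthase gene Nos1 had too few reads to test.

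GC content of the transcripts moved with the groups and with the direction of the members. Across 12783 genes, which are not independent replicates, Spearman's rho of the log2 fold change with GC content was 0.48. Cybb and Nox4, at 45.2% and 45.3% GC, lay in group 2 when tested genes were ordered from low to high GC and divided into 10 equal groups, whose median log2 fold change was -0.21. Cyba, at 59.3%, lay in group 10, whose median was 0.12, and Ncf1, Ncf4, Rac2, Duox1 and Duox2, at 53.2% to 55.7%, in groups with medians of 0.09 and 0.11. Only Duox2 among these had a fold change of the other sign than its group. Of the other genes named above, Rap1a, Tlr4 and Ero1a, at 42.6%, 40.3% and 42.9% GC, lay in group 1, whose median was -0.355. Arhgdia, at 59.9%, lay in group 10. Xdh, Aox1 and Arhgdib, at 50.9%, 49.4% and 50.1%, lay in group 5, whose median was 0.004. The part of GC content in their fold changes was not tested. When each library's trend with GC content was removed, the log2 fold change was -0.16 for Cybb, 0.15 for Cyba, 0.13 for Ncf1, 0.33 for Ncf4, 0.25 for Rac2, -0.43 for Nox4 and 0.06 for Duox1, all closer to 0, and -0.48 for Duox2, farther from it. When trends with gene length and GC content were both removed, a choice made after the data were seen, Cybb stood at -0.10, Cyba at 0.06, Ncf1 at 0.15, Ncf4 at 0.29, Rac2 at 0.25, Nox4 at -0.33, Duox1 at 0.12 and Duox2 at -0.38.

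**Figure D3:**
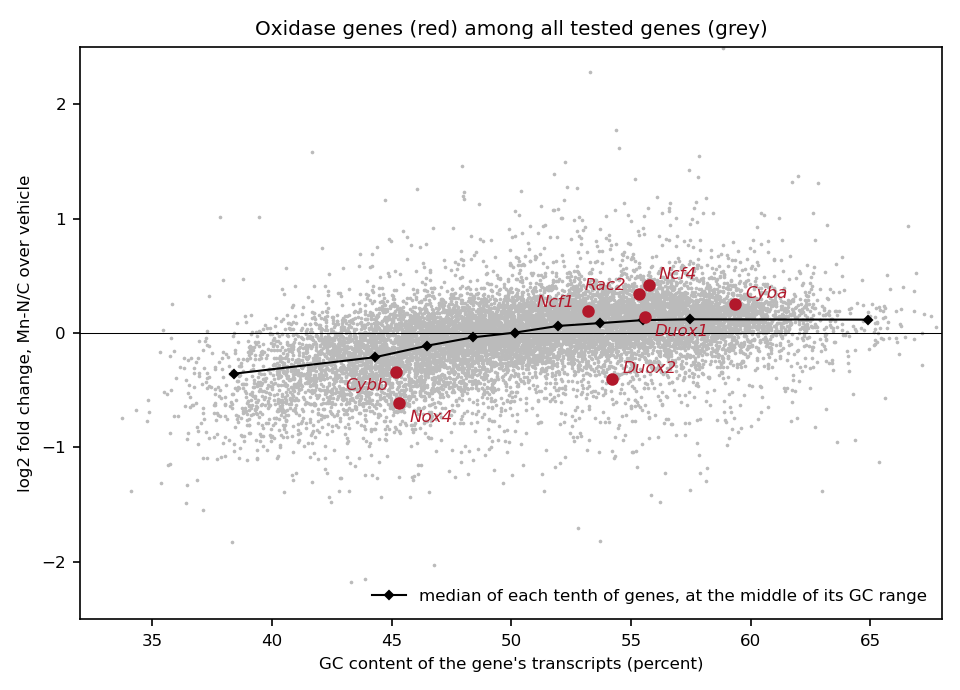
Log2 fold change of Mn-N/C over vehicle (y axis) against GC content of the transcripts in percent (x axis) for the 12783 tested genes with a GC value (grey), with the median of each of the 10 groups of genes (black, drawn at the middle of its GC range) and the 8 tested oxidase genes in red. Cybb and Nox4 sit among AT-rich genes with medians below 0 and Cyba among the most GC-rich ones (10 grey points lie outside the plotted range).

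**Figure D4:**
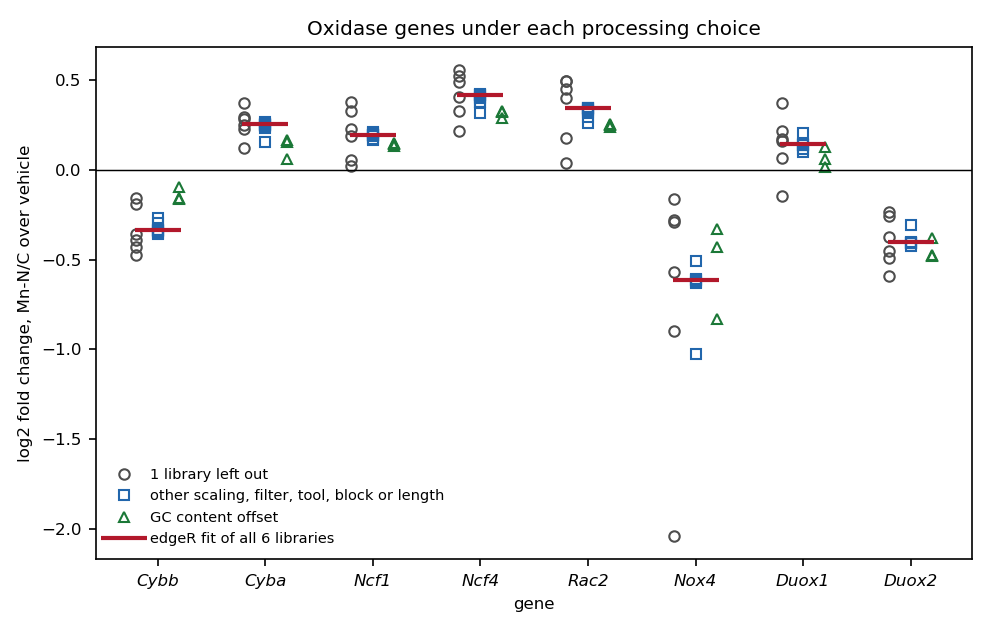
Log2 fold change of Mn-N/C over vehicle for each tested oxidase gene in the edgeR fit of all 6 libraries (red bar), in fits that leave out 1 library (circles), with another scaling, filter, tool, length offset or replicate block (squares) and with a GC content offset (triangles). Duox1 is the only gene with a value on the other side of 0, and Nox4 spans -2.04 to -0.17 as single libraries are left out.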

How the data were processed

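RNA of 6 bulk MC38 tumor samples, 3 per group, was read from 1 table. It holds read counts for each gene, deposited as whole numbers with no scaling, the FPKM values of the authors (counts divided by gene length and library total), and the gene length in bases. HISAT2 2.0 and mm10 are named by the submitters' processing notes. How reads were counted, whether by strand and on which annotation, is not given in the sources used here. Only 2.35% of 21850 genes shared with GENCODE M21 (GRCm38) had equal start and end, so the file's coordinates are given as they stand and only promoter coordinates are on GRCm38.

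The test was edgeR's quasi-likelihood test (version 4.0.16, R 4.3.3, TMM, filterByExpr, group as the only term), with Benjamini-Hochberg adjustment over 12800 genes and a threshold of 0.05. Alternatives were DESeq2 1.42.0, limma 3.58.1 on log2(FPKM + 1) and log2(FPKM + 0.1), other scalings and filters, length and GC offsets (loess, span 0.5), the replicate number as a block and each library left out. GC content is the mean over a gene's protein-coding transcripts in GENCODE M21, or over all of them where none is protein-coding. Replicates differed by more than sampling noise (chi-square per degree of freedom 6.49 to 26.7).

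The members and lists were chosen with earlier results of these data known. Genes named are the 9 members, of each further list the 3 with the smallest p, the one with the highest mean FPKM and those too low to test, of each marker list its sum and most abundant gene, and for Cybb and Nox4 the 4 genes with the closest profile. Other partners and markers are named for their place in the enzymes or cell types, after their values were seen. A further partner is not reported here.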

Additional observations from a re-analysis of the deposited data

How the results depend on the processing

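Of 138 values of single oxidase genes under the alternatives, 137 kept their direction, and of the 135 with an adjusted p (DESeq2 gave none for Nox4, Duox1 and Duox2) 0 passed the threshold. The exception was Duox1, at -0.15 without Mn-N/C replicate 1. Over the fits that each leave out 1 library, 0 members were called, and the log2 fold change ranged from -0.47 to -0.16 for Cybb, 0.12 to 0.37 for Cyba, 0.02 to 0.38 for Ncf1, 0.22 to 0.55 for Ncf4, 0.04 to 0.49 for Rac2, -2.04 to -0.17 for Nox4, -0.15 to 0.37 for Duox1 and -0.59 to -0.24 for Duox2. Over all genes, 0 were called by edgeR and 2682 had an unadjusted p under 0.05, while DESeq2 called 686, which is 6.83% of 10048. Among these were 1 of 23 genes of oxidase activation (Tlr4) and 1 of 15 tested other producers (Xdh), lists in which some genes had no DESeq2 adjusted p. The fits without 1 library called 0 to 583 genes, with 583 without vehicle replicate 2. The cause was not tested. With the replicate number as a block, 0 genes were called, and the log2 fold change was 0.27 for Cyba, -0.34 for Cybb and -1.02 for Nox4, and with the block and the GC content offset -0.83 for Nox4. The deviations of same-numbered libraries correlated at -0.15, -0.01 and 0.12, which with 3 libraries per group cannot settle whether the numbers mark a pairing. With the block, Cyba had an unadjusted p of 0.0258 and an adjusted p of 0.153 from edgeR. With the block and the GC content offset its unadjusted p from edgeR was 0.128. At this depth Nox1 could not be compared.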
